A study of Mus musculus with 6 samples.

Results

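The respiratory chain genes of stimulated mouse CD4 T cells were compared, complex by complex, between cells short of arginine and cells with a normal supply. Members were all genes whose symbol starts with Nduf followed by a, b, c, s or v, with Uqcr, with Cox4 to Cox8 or with Atp5, together with Sdha, Sdhb, Sdhc, Sdhd and Cyc1. A gene needed a probe set that carries its symbol alone, and the brightest such probe set by mean over the arrays stood for it. This gave 90 of the 22180 genes on the array. By symbol, 42 belonged to complex I, 4 to complex II, 9 to complex III, 17 to complex IV and 18 to complex V. The 42 complex I genes comprised 34 subunits and 8 Ndufaf genes, which encode assembly factors and are given apart. The pseudogenes Uqcrh-ps1 and Atp5c1-ps also matched by symbol and were set aside from the subunits.

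The cells came from OT-II transgenic mice, whose CD4 T cells carry a receptor for a peptide of ovalbumin, aged 12 to 16 weeks. T cells and antigen-presenting cells of these mice were cultured together with that peptide for 72 hours. The control group had complete RPMI-1640 medium with dialysed serum, and the low arginine group the same medium with 1% of the normal arginine, which is 12 uM. CD4 cells were purified again from the co-cultures, and their total RNA was hybridised to 3 arrays per group. OT-II genotype, stimulation, peptide and dialysed serum were thus shared by both groups, and strain and sex are not given. The labels call the arrays biological replicates but do not say which mouse stands behind which array, so p-values measure only the spread between these samples.

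The respiratory chain lies in the inner mitochondrial membrane. Complexes I and II pass electrons from NADH and succinate to ubiquinone, complex III passes them to cytochrome c, and complex IV passes them to oxygen. Complexes I, III and IV pump protons, and complex V, the ATP synthase, uses the returning protons to make ATP. Most subunits are encoded in the nucleus, a small core in mitochondrial DNA, and several complex IV subunits exist as isoforms restricted to muscle, heart, lung or testis. T cells enlarge their mitochondria and raise respiration after activation.

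Values below are the deposited log2 values, so a difference of 1 stands for a 2-fold change. Means carry the SD over the 3 arrays of a group. The 6 arrays had medians between 2.97 and 3.03, and their small number limits the precision of every value. The defining T cell genes Cd3e and Cd4 had means of 10.77 and 10.33 in the controls and did not pass the test between groups. Of 8 listed CD4 T cell markers 6 were found and 0 passed (limma, also 0 at an unadjusted p under 0.05), and their summed level was 12.34 to 12.48 in the controls and 12.30 to 12.42 in low arginine. The 6 dendritic cell markers summed to 7.06 to 7.73 in the controls and 5.66 to 5.80 in low arginine, which came from H2-Ab1 (difference -3.06, limma adjusted p = 6.02e-04), while Itgax and Siglech were near the limit for dim genes in both groups. The 5 CD8 and NK cell markers summed to 6.98 to 7.50 in the controls and 6.52 to 6.81 in low arginine. Cd8b1, with means of 6.90 and 6.24, was the brightest of them. Every low arginine array of Cd8b1 lay below every control, but it did not pass (difference -0.66, limma adjusted p = 0.0632). Klrk1 was dimmer and passed (difference -1.04, limma adjusted p = 0.0134). Cd8a overlapped (difference -0.61, limma adjusted p = 0.241), and Ncr1 and Klrb1c were near or below the dim limit. The 4 plasma cell markers summed to 9.28 to 9.76 and 8.76 to 8.86, nearly all of it Xbp1, which also fell (-0.76, limma adjusted p = 0.0157), while Jchain was dim. In these 3 lists, as in the called members other than Cox6a2, every low arginine array lay below every control. B cell markers (5 of 6 found, 4.95 to 5.10 and 4.90 to 5.10) and macrophage markers (6 found, 5.77 to 6.46 and 6.10 to 6.20) overlapped between groups. Erythroid markers were not analysed here. The part of such cells in the results below was not tested. In bulk RNA of the purified cells, fewer cells of a type and less RNA per cell cannot be told apart.

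Of the 90 members, 83 were bright enough to be tested. The other 7 had a mean below 2.48 and were Ndufa4l2, Cox7b2, Cox7c, Cox8b, Cox8c, Uqcrh-ps1 and Atp5c1-ps. In low arginine 10 members fell and 1 rose past a limma adjusted p of 0.05 (Benjamini-Hochberg over all 14787 genes tested). That is 13.3% of the members tested, beside 12.2% of all genes tested. By direction, 12.0% of members were called lower beside 6.98% of all genes, and 1.2% higher beside 5.19%. Lower genes made 57.4% of all calls, and 69.0% when arrays were centred on their 75th percentile, while the members' calls became 11 lower and 1 higher. The groups did not overlap, every array of 1 group lying above every array of the other, for 26 members that were lower and 4 that were higher. These make 36.1% of the members, beside 32.2% of all genes tested. By direction, 26 of the 83 members tested were lower and 4 higher, beside 16.2% lower and 16% higher of all genes. The differences of 60 of the 83 members were below 0 (72.3%), against 48.4% of all genes. The median difference was -0.17, with quartiles of -0.37 and 0.02, against a median of 0.01 over all genes.

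**Figure D1:**
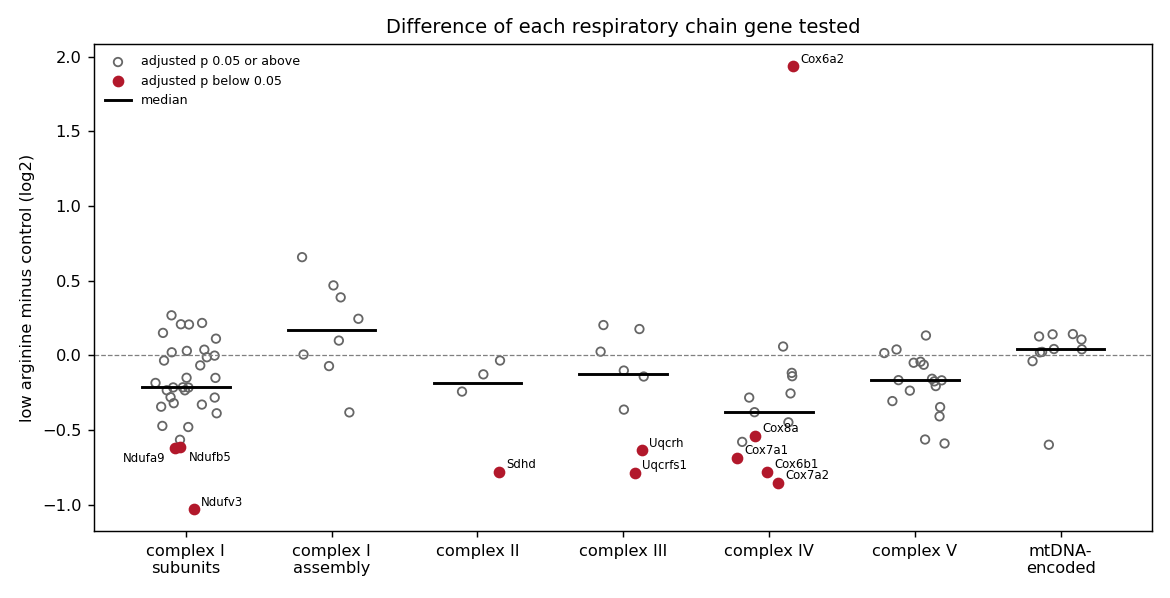
Difference between low arginine and control (log2, vertical axis) of each of the 83 respiratory chain genes tested, grouped along the horizontal axis by complex, with the Ndufaf assembly factors and the 10 subunits encoded in mitochondrial DNA apart. Each point is 1 gene, filled and named where past the adjusted p threshold, and bars are medians. Most points lie below 0, complex IV spans from -0.85 (Cox7a2) to 1.94 (Cox6a2), and complex V has no named point.

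The median shift over the 83 members tested, Ndufaf genes included, rested largely on 1 array. The median deviation of the members from their mean over the 6 arrays was 0.30 in control 1, 0.05 in control 2 and -0.08 in control 3. In low arginine 1, 2 and 3 it was -0.08, -0.05 and -0.10. Control 1 stood above all other arrays, and control 3 lay among the low arginine arrays. Control 1 exceeded the mean of the other controls by a median of 0.31 over the members, but by 0.01 over all genes tested. Without control 1 the median difference of the members was -0.0225, with 16 members lower and 4 higher while 22.5% of all genes were called. Over the 75 subunits tested, without the Ndufaf genes, the median moved less, from -0.21 with all arrays to -0.10 without control 1. All 10 members called lower were also called lower without this array. The genes that gained a call then were Atp5d, Atp5g2, Cox4i1, Cox4i2, Cox5a and Cox6b2, lower, and Ndufaf4, Ndufaf8 and Uqcrb, higher.

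The complexes differed in how their arrays lay. For complex IV the median deviations were 0.40, 0.23 and 0.13 in the controls and -0.21, -0.10 and -0.17 in low arginine, so the groups did not overlap. Its median difference of -0.38 became -0.43 without control 1. For complex II the groups did not overlap either, with 0.36, 0.04 and -0.04 in the controls and -0.08, -0.07 and -0.17 in low arginine. For complex I they overlapped, with 0.32, 0.03 and -0.11 against -0.06, -0.04 and -0.10. Those of complex III, 0.34, 0.03 and -0.09 against -0.07, -0.08 and -0.03, overlapped as well. So did those of complex V, with 0.18, 0.09 and -0.10 against -0.08, -0.02 and -0.14. Without control 1 the median difference went from -0.21 to -0.07 for complex I, from -0.19 to -0.05 for II, from -0.12 to -0.0235 for III and from -0.17 to -0.0225 for V. The differences between complexes, and what set control 1 apart, were not tested.

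**Figure D2:**
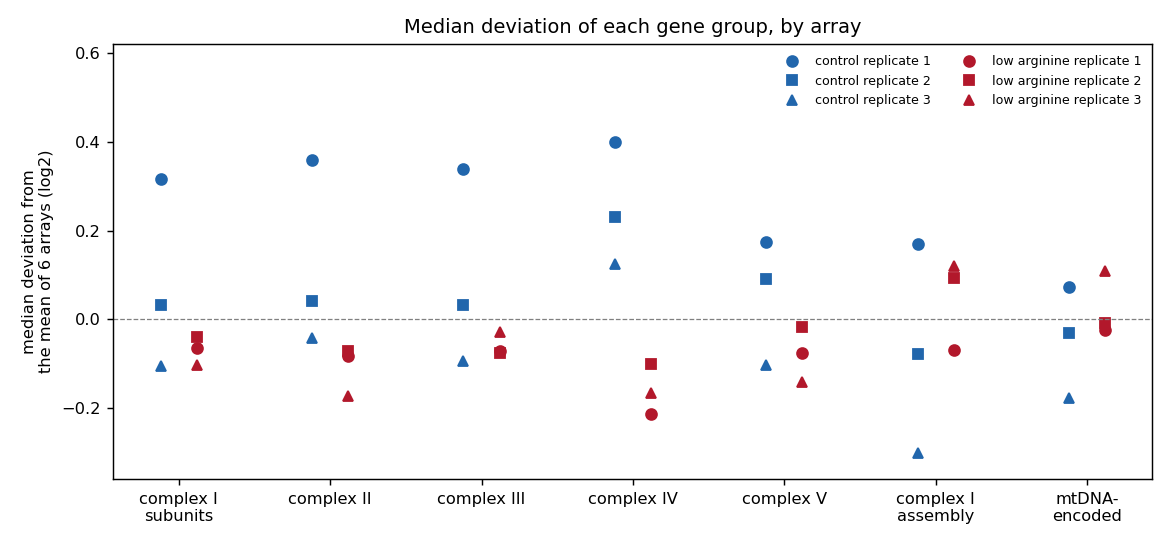
Median deviation from the mean of the 6 arrays (log2, vertical axis) for the genes of each complex, the Ndufaf assembly factors and the subunits encoded in mitochondrial DNA (horizontal axis), with 1 point per array, colours for groups and shapes for replicates. Control 1 is the highest point in every complex, the control and low arginine points are separate for complexes II and IV, and they overlap for complexes I, III and V.

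The proximal promoters were read for motifs known from nuclear genes of the respiratory chain. RefSeq windows of the mouse assembly GRCm38.p6, 250 bases before to 50 after the start, were matched for 72 members by Entrez gene number. Both strands were searched for the NRF1 letters GCGCATGC, the ETS letters CCGGAAG, which GABP binds, the YY1 letters AAGATGGC and the E-box CACGTG, as 4 motifs of which none contains another. NRF1 letters stood in 12 of 72 member promoters (16.7%) and in 3.94% of all protein-coding genes with a window. ETS letters stood in 19 (26.4%, against 12.9%), YY1 letters in 10 (13.9%, against 3.57%) and the E-box in 6 (8.33%, against 8.91%). Of the 10 members that fell, all with a window, 0 held the NRF1 letters, 4 the ETS letters (Cox6b1, Cox8a, Sdhd and Uqcrh), 1 the YY1 letters (Ndufa9) and 0 the E-box. Among the 59 members tested, with a window and not called, the counts were 12, 15, 9 and 6. Counts this small are a description and were not tested, and a match of letters is not a binding site.

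Examples are shown for members the results turn on: ETS letters before 3 genes that fell, and NRF1 letters before Sdhb and Cox6a1, the partners of Sdhd and Cox6a2 that did not pass the test. Sdhb and Cox6a1 held the ETS letters as well, so the examples draw no contrast between the motifs. Each is given 5′ to 3′ on the gene's strand with the motif in capitals. CTTCCGG and GCATGCGC are the ETS and NRF1 letters as read from the opposite strand.
Cox6b1, chr7:30626120-30626158, minus strand, motif 28 bases before the start: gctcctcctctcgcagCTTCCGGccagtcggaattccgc
Sdhd, chr9:50603873-50603911, minus strand, 46 bases before: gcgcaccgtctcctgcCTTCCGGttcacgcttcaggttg
Uqcrh, chr4:116075071-116075096, minus strand, 10 bases before: cgaggagtatgccgcaCTTCCGGcca
Sdhb, chr4:140961201-140961240, plus strand, 54 bases before: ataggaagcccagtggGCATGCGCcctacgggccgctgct
Cox6a1, chr5:115349097-115349136, minus strand, 162 bases before: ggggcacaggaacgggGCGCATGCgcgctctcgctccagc

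In complex I, which takes electrons from NADH, 3 of 33 subunits tested fell and 0 rose in low arginine (limma, unadjusted p under 0.05 for 9 lower and 0 higher), and 24 had a difference below 0 (median -0.21). The lower calls made 9.09% of these subunits, near the 6.98% of all genes tested. The subunit with the largest difference was Ndufv3, an accessory protein of the NADH-binding module. Its values were 6.84, 7.14 and 6.98 in the controls and 5.94, 5.97 and 5.97 in low arginine. All low arginine arrays lay close together and well below the lowest control. Its mean went from 6.99 ± 0.15 to 5.96 ± 0.02, a difference of -1.03 (95% interval -1.30 to -0.77, control 2.04-fold above low arginine, limma adjusted p = 0.00312). Ndufa9, an accessory subunit near the junction of the membrane and matrix arms, measured 7.79, 7.48 and 7.32 in the controls and 6.87, 6.94 and 6.92 in low arginine. The groups did not overlap, and the controls spread more than the low arginine arrays. The mean fell from 7.53 ± 0.24 to 6.91 ± 0.04 (difference -0.62, adjusted p = 0.028). Ndufb5, an accessory subunit of the membrane arm, had 6.31, 6.16 and 5.88 against 5.43, 5.54 and 5.54, again without overlap. For Ndufb5 the mean went from 6.12 ± 0.22 to 5.51 ± 0.07 (difference -0.61, adjusted p = 0.0266).

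The nuclear core of complex I, the subunits that bind flavin and iron-sulfur clusters and carry the electrons, showed no call. All 6 of these genes (Ndufs1, Ndufs3, Ndufs7, Ndufs8, Ndufv1 and Ndufv2) were tested, and their differences ran from -0.34 to 0.11 with a median of -0.05 (limma, unadjusted p under 0.05 for Ndufv2 alone). Ndufs1, the largest iron-sulfur subunit, had a difference of -0.15 (adjusted p = 0.683), and Ndufv1, which binds NADH and flavin, one of 0.03 (adjusted p = 0.939). The 3 calls lay among the 26 accessory subunits, whose median was -0.22. The accessory subunit Ndufs4, whose loss causes complex I deficiency, had a difference of only -0.22 (adjusted p = 0.323). Its groups all but touched, with the lowest control at 6.547 and the highest low arginine array at 6.543. Ndufab1, the mitochondrial acyl carrier protein that also serves lipoate synthesis, differed by 0.04 (adjusted p = 0.916), and Ndufb9, the brightest member of complex I, by 0.02 (adjusted p = 0.943). Core and accessory genes were not tested against each other. With 6.98% of all genes tested called lower, 6 genes can easily hold no call.

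Across complex I, 8 further subunits were lower without overlap and missed the threshold, and 2 were higher without overlap. With the called subunits, 11 of the 33 tested were lower without overlap and 2 were higher, 39.4% in all. Of all genes tested, 16.2% were lower without overlap and 16% higher, 32.2% in all. Ndufa13, also known as a cell death regulator, came nearest with a difference of -0.32 (adjusted p = 0.0869). Ndufa8 had a difference of -0.48 (adjusted p = 0.0997), and its second probe set one of -0.38, also without overlap. Ndufa2 and Ndufa7 were the higher genes, at 0.21 and 0.22 (adjusted p = 0.274 and 0.282). Ndufa4, which carries a complex I name but is now placed with complex IV, measured 9.10, 8.39 and 7.98 in the controls and 7.96, 7.95 and 7.87 in low arginine. Its control values spread over more than 1 log2 unit, and control 3 nearly touched the low arginine arrays. The difference was -0.57 with an adjusted p of 0.205, and -0.26 without control 1. Its hypoxia-linked relative Ndufa4l2 was dim in both groups, with means of 2.26 and 2.20, and was not tested.

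The Ndufaf genes encode proteins that help build complex I and are not part of it. None of the 8 passed the test by limma (unadjusted p under 0.05 for 1 lower and 2 higher), and 6 of 8 had a difference above 0, with a median of 0.17. Their array medians were 0.17, -0.08 and -0.30 in the controls and -0.07, 0.09 and 0.12 in low arginine, so control 1 was the highest array and the groups overlapped. Ndufaf4 measured 5.63, 4.86 and 4.78 in the controls and 5.53, 5.86 and 5.85 in low arginine. Control 1 alone reached the low arginine range, and the difference was 0.66 (adjusted p = 0.111). Without control 1 the difference was 0.93 (adjusted p = 0.00336). Ndufaf5 had 3.63, 3.69 and 3.59 against 3.77, 4.29 and 4.26, without overlap (difference 0.47, adjusted p = 0.0944). Ndufaf1 was the single lower gene without overlap, at -0.38 (adjusted p = 0.14).

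Complex II, succinate dehydrogenase, is also an enzyme of the citric acid cycle. Of its 4 subunits, 1 fell (25%, beside 6.98% of all genes tested): Sdhd, the small membrane anchor that with Sdhc holds the ubiquinone site and heme. Sdhd measured 8.17, 7.88 and 7.50 in the controls and 7.13, 7.15 and 6.93 in low arginine. The lowest control lay 0.35 above the highest low arginine array, and the controls themselves spread over 0.67. Its mean went from 7.85 ± 0.34 to 7.07 ± 0.12 (difference -0.78, 1.72-fold, limma adjusted p = 0.0296). The other anchor, Sdhc, had a difference of -0.24 (adjusted p = 0.34). The iron-sulfur subunit Sdhb had -0.13 (adjusted p = 0.647) and the flavin-bearing catalytic subunit Sdha -0.03 (adjusted p = 0.88, 95% interval -0.28 to 0.21). Sdha was the brightest member of complex II, and its groups overlapped.

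In complex III, which moves electrons from ubiquinol to cytochrome c, 2 of 8 subunits fell and 0 rose (limma, unadjusted p under 0.05 for 3 lower and 0 higher, median -0.12). The 2 made 25%, beside 6.98% of all genes tested. Uqcrfs1, the Rieske iron-sulfur protein and the last catalytic subunit to be inserted, measured 5.42, 5.44 and 5.45 in the controls and 4.71, 4.78 and 4.46 in low arginine. The controls lay within 0.03 of each other and all low arginine arrays were lower. The Uqcrfs1 mean fell from 5.43 ± 0.01 to 4.65 ± 0.17 (difference -0.79, 1.72-fold, limma adjusted p = 0.00853). Uqcrh, the hinge protein that assists the contact with cytochrome c, had 6.56, 6.49 and 6.70 against 5.85, 6.15 and 5.84. The groups were separate, and its mean went from 6.59 ± 0.11 to 5.95 ± 0.18 (difference -0.64, adjusted p = 0.0203). The other catalytic subunit encoded in the nucleus, cytochrome c1 (Cyc1), differed by -0.10 (adjusted p = 0.755). Uqcrc2, a core protein and the brightest member of the complex, differed by -0.14 without overlap (adjusted p = 0.423). Uqcr11 was lower without overlap at -0.36 (adjusted p = 0.178), and Uqcrb, a ubiquinone-binding protein, differed by 0.18 (adjusted p = 0.749), or by 0.51 (adjusted p = 0.0304) without control 1, which stood at 9.15 with the next control at 8.27.

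**Figure D3:**
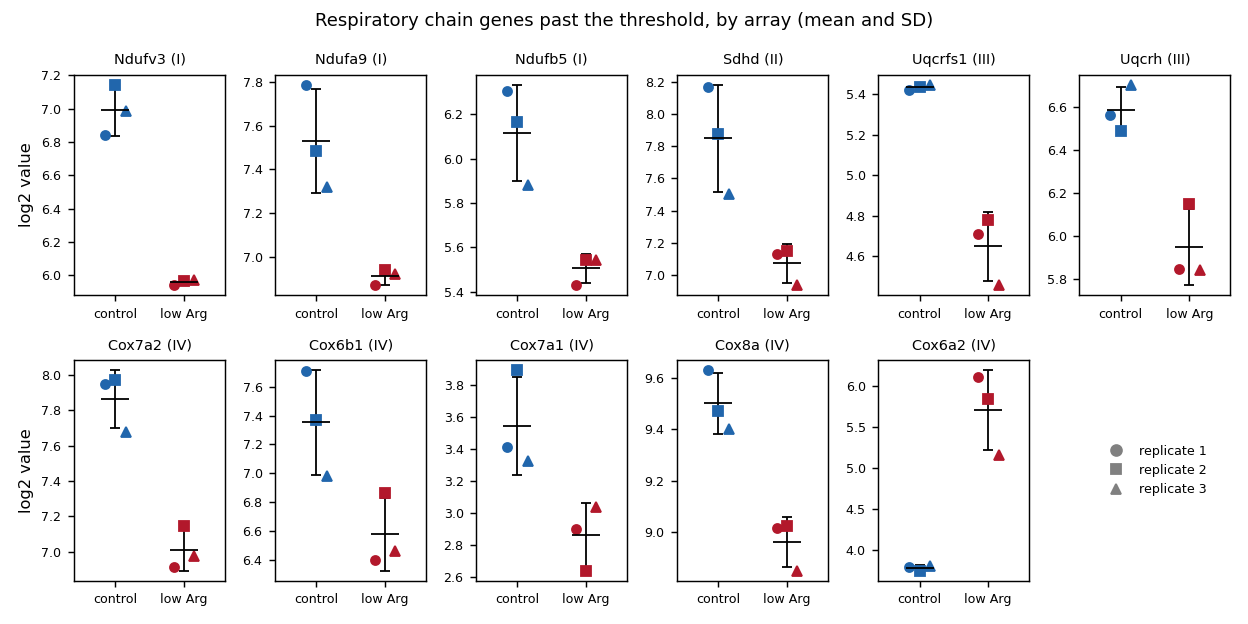
Deposited log2 values (vertical axis, each panel with its own range) of the 11 respiratory chain genes past the adjusted p threshold, 1 panel per gene with its complex in brackets; points are arrays, bars the mean and SD of the 3 arrays of a group. In 10 panels every low arginine array lies below every control, and in the Cox6a2 panel every low arginine array lies above.

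In complex IV, cytochrome c oxidase, 4 of 13 subunits tested fell and 1 rose. These were 30.8% lower and 7.69% higher, beside 6.98% and 5.19% of all genes tested. Leaving out 1 array at a time gave 1 to 8 lower, with 1 when control 2 or any low arginine array was left out and 8 without control 1, and 1 higher each time. The 9 subunits used in most tissues had 8 members tested, all with a difference below 0 (median -0.49), and 3 of them fell. Cox7a2, the widely expressed form of a small membrane subunit, measured 7.95, 7.97 and 7.67 in the controls and 6.91, 7.14 and 6.98 in low arginine. The groups were separated by more than the range within either. Its mean went from 7.86 ± 0.16 to 7.01 ± 0.12 (difference -0.85, 95% interval -1.15 to -0.56, 1.8-fold, limma adjusted p = 0.00818). Cox8a, the general form of subunit 8, had 9.63, 9.47 and 9.40 against 9.02, 9.02 and 8.85. Its arrays did not overlap, and the mean went from 9.50 ± 0.12 to 8.96 ± 0.10 (difference -0.54, adjusted p = 0.0243). Cox6b1, which links the monomers of the enzyme on the side of the intermembrane space, had 7.71, 7.37 and 6.98 against 6.40, 6.87 and 6.46. Control 3 came within 0.12 of low arginine 2, and the mean went from 7.35 ± 0.36 to 6.58 ± 0.25 (difference -0.78, adjusted p = 0.0494).

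Cox5a and Cox4i1, early partners of the catalytic core, lay just outside the threshold. Cox5a measured 8.37, 7.95 and 7.77 in the controls and 7.46, 7.45 and 7.44 in low arginine, a difference of -0.58 (limma adjusted p = 0.0557). Cox4i1, the ubiquitous form of the subunit through which ATP regulates the enzyme, had 8.31, 8.50 and 8.28 against 7.91, 8.07 and 7.76, a difference of -0.45 (adjusted p = 0.0564). Both were free of overlap. Cox5b, which binds zinc, differed by -0.12 (adjusted p = 0.814), with control 1 at 8.44 and the other 5 arrays between 7.45 and 7.81. Its second probe set was dim and differed by -0.05. Cox6a1, the brightest member of complex IV, measured 11.15, 10.73 and 10.52 against 10.71, 10.66 and 10.62, with overlap (difference -0.14, adjusted p = 0.659). Cox7a2l, a factor that joins complexes III and IV into supercomplexes, differed by 0.06 (adjusted p = 0.911).

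The single member that rose was Cox6a2, the form of subunit 6a known from heart and skeletal muscle. It measured 3.79, 3.74 and 3.80 in the controls and 6.12, 5.85 and 5.16 in low arginine. The controls were nearly equal, and the lowest low arginine array stood 1.37 above the highest control. Its mean went from 3.77 ± 0.03 to 5.71 ± 0.49, a difference of 1.94 (95% interval 1.41 to 2.46, 3.83-fold, limma adjusted p = 0.00383). It had 1 probe set, so no second one could be compared. Of the other muscle and fibroblast markers, 4 of 4 were found and 0 of 3 tested passed (limma, also 0 at an unadjusted p under 0.05). Their summed level was 5.71 to 5.91 in the controls and 5.73 to 5.86 in low arginine. Ckm, the muscle creatine kinase, had a mean of 3.14 in both groups.

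The other tissue-restricted isoforms of complex IV did not share this rise. Cox7a1, the heart and muscle form of subunit 7a, measured 3.41, 3.89 and 3.33 in the controls and 2.90, 2.64 and 3.04 in low arginine. Its groups did not overlap, but low arginine 2 was close to the dim limit of 2.48, so the size of the fall is uncertain. The difference was -0.68 (limma adjusted p = 0.0477). Cox4i2, the lung form that responds to oxygen, differed by -0.28 (adjusted p = 0.265), and Cox6b2, the testis form, by -0.38 (adjusted p = 0.204). Cox8b, the muscle form of subunit 8, had means of 2.36 and 2.52, and the testis form Cox8c 2.22 and 2.00. Both were dim and not tested.

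Within an array, the log2 ratio of Cox6a2 to Cox6a1 went up by 2.08 in low arginine (exact permutation test, two-sided, p = 0.1, the smallest that 3 against 3 arrays can give). Adjusted over the 4 isoform pairs this was 0.4. The ratio of Cox4i2 to Cox4i1 changed by 0.17, that of Cox6b2 to Cox6b1 by 0.40 and that of Cox7a1 to Cox7a2 by 0.17 (adjusted p = 0.5 for each, same test). For these 3 pairs the ratios of the groups overlapped. A ratio shows unequal change of a pair and says nothing of which isoform the enzyme holds.

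**Figure D4:**
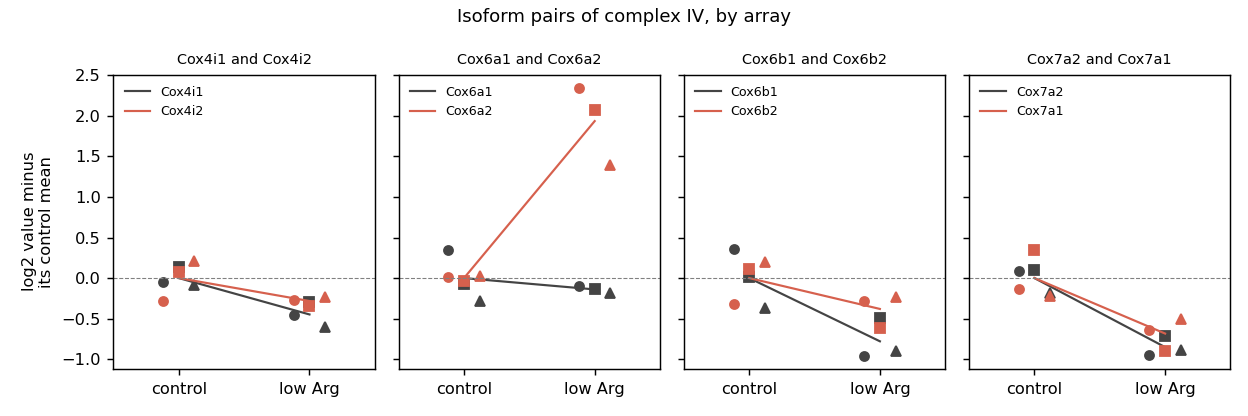
Log2 value minus the gene's control mean (vertical axis) for 4 isoform pairs of complex IV in the 3 control and 3 low arginine arrays (points, horizontal axis by group), with the general and the tissue-restricted form in separate colours and lines joining the group means. Cox6a2 lies well above 0 in low arginine while Cox6a1 stays near 0, and in the other 3 pairs the low arginine means of both forms lie below 0.

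Complex V, the ATP synthase, had 17 subunits tested and 0 called by limma (unadjusted p under 0.05 for 3, all lower). Of the 17, 14 had a difference below 0, with a median of -0.17, and 3 were lower without overlap (17.6%, beside 16.2% of all genes tested). Of the F1 part, Atp5a1 and Atp5b lay near 0. Atp5a1 differed by 0.04 (adjusted p = 0.918) and Atp5b, the catalytic beta subunit and the brightest member, by -0.06 (adjusted p = 0.821). The central stalk subunit Atp5c1 differed by -0.17 (adjusted p = 0.496), close to the median of the complex. Atp5d, the delta subunit of the stalk, had the largest difference in the complex. It measured 7.90, 8.56 and 8.18 in the controls and 7.66, 7.70 and 7.51 in low arginine, without overlap. The difference was -0.59 (adjusted p = 0.0662), and its second probe set gave -0.44, also without overlap. Without control 1, its lowest control, the difference was -0.75 (adjusted p = 0.00932).

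The c ring, which turns as protons pass, is encoded by 3 genes for 1 mature protein. Atp5g2 measured 10.29, 10.60 and 10.59 in the controls and 10.23, 10.14 and 10.08 in low arginine, without overlap (difference -0.35, limma adjusted p = 0.119). Its second probe set also differed by -0.35 without overlap. Atp5g1 differed by -0.05 (adjusted p = 0.869) and Atp5g3 by -0.24 (adjusted p = 0.518). The peripheral stalk and membrane subunits had 9 members tested, with differences from -0.56 to 0.13. The lowest was Atp5mpl, a small membrane subunit, with 7.95, 7.47 and 7.52 against 6.90, 7.27 and 7.08 (adjusted p = 0.0657). Atp5s was not analysed here.

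Except for ND6, the partner subunits encoded in mitochondrial DNA had differences from -0.04 to 0.14. Probe sets were found for 10 of the 13, namely ND1 to ND6, ND4L, CYTB, COX1 and COX3. None passed the test by limma (unadjusted p under 0.05 for 1), and 8 of 10 had a difference above 0, with a median of 0.04. With arrays centred on their 75th percentile 4 of 10 were above 0, so their direction depends on the scaling. Their array medians were 0.07, -0.03 and -0.18 in the controls and -0.02, -0.01 and 0.11 in low arginine, which overlap. COX1, the catalytic subunit of complex IV, differed by 0.02 (adjusted p = 0.939). ND6, the one encoded on the opposite strand from the others, measured 8.68, 9.59 and 9.30 in the controls and 8.70, 8.60 and 8.47 in low arginine. Control 1 lay among the low arginine arrays, and the difference was -0.60 (adjusted p = 0.128). Without control 1 it was -0.86 (adjusted p = 0.00446). ND6 had a mean of 8.89 over the 6 arrays. The others had means of 11.21 (COX3) to 12.03 (ND4), near the highest value on the arrays, 12.41. Whether signals this bright can show a change was not tested.

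Of 107 genes found that assemble, feed or regulate the chain, 102 were tested, 7 fell and 8 rose. These 14.7% lay near the background of 12.2% (6.86% lower beside 6.98%, and 7.84% higher beside 5.19%). Among complex IV assembly factors 3 of 23 fell and 2 rose. Higd1a, a small inner membrane protein induced by hypoxia that binds the oxidase, measured 4.69, 5.25 and 5.06 in the controls and 3.79, 3.78 and 3.67 in low arginine, with no overlap (difference -1.26, limma adjusted p = 0.00452). Surf1, whose loss causes Leigh syndrome, fell by 0.61 (adjusted p = 0.015), and Sco1, a copper carrier for the oxidase, fell by 0.67 (adjusted p = 0.0277). Cox16 rose by 0.85 (adjusted p = 0.0137) and Coa8 by 0.40 (adjusted p = 0.0396). So within 1 complex both subunits and assembly factors were called in each direction.

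For complexes II and III, 2 of 10 assembly factors rose and 0 fell (limma, unadjusted p under 0.05 for 3). Of all genes tested, 5.19% were called higher and 6.98% lower. Sdhaf1, which helps insert the iron-sulfur clusters of Sdhb, rose by 0.53 (limma adjusted p = 0.0191). Ttc19, which clears fragments of Uqcrfs1 from complex III, rose by 0.92 (adjusted p = 0.0227), while Uqcrfs1 itself was among the genes that fell. No complex I assembly factor outside the Ndufaf family was called of 11 (unadjusted p under 0.05 for 0), and none of 8 assembly and regulatory genes of complex V (unadjusted p under 0.05 for 4), of which 2 are members by symbol. Over all 58 genes of the assembly lists, the Ndufaf genes and the complex V regulator Atpif1 included, 3 fell and 4 rose, with a median of 0.04.

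Of 6 carriers and channels for ADP, ATP and phosphate tested, 3 fell, beside 6.98% of all genes tested. The uncouplers Ucp1 and Ucp3 were dim and not tested. Vdac1, the main channel of the outer membrane for ATP and ADP, measured 9.36, 9.48 and 9.22 in the controls and 8.12, 8.20 and 8.12 in low arginine, with no overlap (difference -1.21, limma adjusted p = 0.00153). The ADP/ATP exchangers Slc25a4 and Slc25a5 fell by 0.75 (adjusted p = 0.00974) and 0.52 (adjusted p = 0.0251). Among 18 electron carriers and feeders of the quinone pool, Etfdh, which brings in electrons from fatty acid oxidation, fell by 0.53 (adjusted p = 0.0193), and Coq2, an enzyme of ubiquinone synthesis, rose by 0.53 (adjusted p = 0.0234). Cytochrome c itself (Cycs) differed by 0.20 (adjusted p = 0.712), and by 0.56 (adjusted p = 0.0106) without control 1, its highest control. None of 11 genes of cristae organisation was called (unadjusted p under 0.05 for 2).

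Of 17 regulators of mitochondrial biogenesis and mitochondrial DNA tested, 3 rose and 0 fell (limma, unadjusted p under 0.05 for 6 in all), with a median of 0.24. Of all genes tested, 5.19% were called higher and 6.98% lower. The 3 that rose were Ppargc1b, a coactivator of respiratory genes (0.70, limma adjusted p = 0.0476), the mitochondrial DNA polymerase Polg (0.40, adjusted p = 0.0452) and Mterf3 (0.64, adjusted p = 0.0487). The third coactivator of this family, Pprc1, differed by 0.89 (adjusted p = 0.0872), and by 1.26 (adjusted p = 4.9e-04) without control 1, and Ppargc1a was dim and not tested. The transcription factors Nrf1 (0.26, adjusted p = 0.294), Gabpa (0.05, adjusted p = 0.847) and Esrra (0.03, adjusted p = 0.93), and Tfam (-0.15, adjusted p = 0.421), which packs mitochondrial DNA, were not called. Ucp2 was not analysed here.

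Calls were recomputed under 15 other settings. Cox6a2, Cox7a2, Ndufv3 and Uqcrfs1 kept their call in all 15, and none of the 11 called members reversed its direction. Ndufa9, Ndufb5, Sdhd and Cox8a each lost it when control 2 or any 1 of the low arginine arrays was left out, with adjusted p between 0.0636 and 0.116. Uqcrh lost it without control 2, control 3, low arginine 1 or low arginine 3 (up to 0.0871). Cox6b1 and Cox7a1 lost it in 7 settings each (up to 0.166 and 0.167). Without control 2, 3.38% of all genes were called. Of the 15 genes called among the other pathway genes, Higd1a and Vdac1 kept the call in all settings, while Coa8, Polg and Mterf3 lost it in 10 and Ppargc1b in 11 of the 15.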

How the data were processed

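RNA of 6 cultures was measured on 1-colour whole-transcript arrays. The values are log2 expression values per probe set as deposited by the authors, made with the oligo package per the submitters' processing notes. The sources used here do not give its version, background correction, normalization or log base. Base 2 was taken from the range of the values (0.956 to 12.41). After sorting, the 6 arrays lay within 0.199 of each other. No detection calls or scanner signals were used.

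Of 41345 probe sets, 23521 carried 1 gene symbol, 1814 several (10 of these name a member and were left out) and 16010 none. Members had 99 probe sets, and 9 members more than 1. The dimmest share of 0.333 by mean (7393 of 22180 genes) was left out. The low arginine and control arrays were fitted with limma (version 3.58.1, R 4.3.3; lmFit, eBayes) with group as the only term and two-sided tests on 4 residual plus 3.69 prior degrees of freedom, adjusted by Benjamini and Hochberg over 14787 genes, of which 1799 passed 0.05. On simulated data of that size with 200 genes changed, 18% of log2 changes of 0.5, 92% of 1, 98% of 2 and 100% of 3 were recovered, with 10 false calls.

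Members and lists were chosen with earlier results of these data known, and the split into core, accessory, general and tissue-restricted subunits was made after values were seen. Named were members past the threshold, the largest difference and the brightest member in each complex, a set of subunits and isoforms whatever their result, non-overlapping near misses, and called genes of the other lists. Same-numbered arrays were not taken as pairs. Proteins were not compared. Figures were drawn with matplotlib 3.10.9.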

Additional observations from a re-analysis of the deposited data

How the results depend on the processing

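With array weights, 26 members were lower and 5 higher, while 5514 of all genes were called, 37.3% of them and 37.3% of the members. Leaving out 1 array at a time gave 3 to 16 members lower and 1 to 4 higher, and a median difference between -0.24 and -0.0225, the latter without control 1. Calls over all genes, 1799 with all arrays, were then 3325 without control 1, 500 without control 2, and 995, 509 and 592 without low arginine 1, 2 and 3. With a replicate block, 8 members were lower and 1 higher (Cox6b1 and Cox7a1 lost the call), while the deviations of same-numbered arrays from their group means correlated by 0.12, 0.06 and 0.14. These correlations are over all genes tested. Not all exceeded 0.1, although every array correlated best with its own number, a hint from the data and not the design. Over the members they were -0.06, -0.05 and 0.06, and control 1 correlated best with low arginine 2 (0.13), so the hint did not hold there. Quantile normalization, centring on the median or the 75th percentile, no filter on dim genes, a stricter one, averaging probe sets of 1 gene, and a trended and robust prior gave 8 to 11 lower and 1 higher. Cox5a passed the threshold in 5 of the 15 settings and Cox4i1 with array weights and without control 1. No detection calls were used here, so levels near the dim limit (Cox7a1, Cox8b, Cox8c, Ndufa4l2) are not known to stand above background.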
